A study of Saccharomyces cerevisiae with 18 samples.

Results

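The histidine synthesis genes of Saccharomyces cerevisiae are HIS1, HIS2, HIS3, HIS4, HIS5, HIS6 and HIS7, 7 of the 6002 protein-coding genes of the R64 annotation. They were chosen by pathway name, with earlier results of these data in view, and were selected on the values given below: the level by medium, the start sites and the 3' ends. All of these are therefore descriptions, and none is tested. Of the 2502656 pairs of ends in the deposited table, 4041 overlapped a coding sequence of the 7 genes on its own strand, and 539 of those had no read in any column.

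Each row of the table pairs the place where an RNA molecule began, at its cap, with the place where its poly(A) tail was added, both read from 1 circularised cDNA (TIF-Seq, transcript isoform sequencing). The cells were the wild-type diploid strain SLS045 of the S288c background at an OD of 1, in mid-log phase. Galactose cells grew in YPGal (1% yeast extract, 2% peptone and 1% galactose), and glucose cells grew in YPAD (1% yeast extract, 2% peptone and 1% glucose). The standard galactose column summed 6 libraries from 4 cultures, and the standard glucose column summed 6 libraries from 2 cultures, in 3 preparations each, the last with capped in vitro transcripts of Bacillus subtilis added. A long-enriched protocol gave 2 libraries per medium, and a protocol for polyadenylated molecules without a cap gave 1 per medium.

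Libraries of a kind were summed before deposit, so each column is 1 value with no spread between replicates, and no p-value is given. The long-enriched libraries came from cultures that also gave standard ones (galactose cultures 1 and 4 of the 4), so the 2 protocols repeat the measurement and not the growth. The columns held 6425269 standard reads in galactose and 6290819 in glucose, 3559614 and 2745847 long-enriched reads in the same order of media, and 1100551 and 1317650 non-capped reads. All intervals are 95% intervals that cover counting error only. Reads from PCR copies of 1 cDNA may be counted more than once, which would make the intervals too narrow. Since cells were harvested in bulk, less RNA per cell and fewer cells that make it cannot be told apart.

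Histidine is made from phosphoribosyl pyrophosphate and ATP by a linear pathway that was among the first in which yeast genes were shown to be regulated together. When amino acids run short, the activator Gcn4 raises the transcription of genes of many amino acid pathways, histidine included; this is the general control of amino acid synthesis. HIS3 and HIS4 are textbook promoters: HIS3 has closely spaced upstream and downstream start sites, of which the downstream ones are favoured when Gcn4 is active, and HIS4 is controlled by Gcn4 together with Bas1, Pho2 and Rap1.

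Reads were counted for a gene if their molecule spanned all of its coding sequence and that of no other gene. Ratios are galactose over glucose after scaling by the trimmed mean of M values (TMM), a scaling that sets the bulk of genes to no difference. A gene was measured with at least 20 reads in each protocol, and called lower or higher when the 2 protocols each differed at least 2-fold, the same way, and neither interval held a ratio of 1.

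By this rule 4 of the 6 measured genes were lower in galactose (HIS1, HIS4, HIS7 and HIS3), 0 were higher and 2 were neither (HIS6 and HIS2); HIS5 was not measured. Over the genome 2.54% of 3581 measured genes were lower (91 genes) and 6.39% were higher (229 genes). The median log2 ratio of the 6 genes was -1.49 (standard) and -1.23 (long-enriched), beside 0.01 and 0.02 over all measured genes. Because the genes were chosen with such results known, the share of lower genes among them is not independent evidence.

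HIS1 (YER055C, chromosome V, 264892 to 265785, minus strand) encodes the ATP phosphoribosyltransferase, the first and feedback-regulated step. Its coding sequence was covered by 480 standard and 141 long-enriched reads in galactose, against 960 and 240 in glucose. Its level was 2.77-fold lower in galactose (interval 2.48 to 3.10) in the standard protocol and 2.43-fold lower (1.97 to 3.01) in the long-enriched one. Both protocols thus placed HIS1 past the 2-fold line.

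HIS4 (YCL030C, chromosome III, 65934 to 68333, minus strand) encodes a multifunctional enzyme for the second, the third and the last step. It had 37 standard and 328 long-enriched reads in galactose, against 132 and 1243 in glucose. The level was 4.94-fold lower (3.41 to 7.32) and 5.41-fold lower (4.79 to 6.13) in the same order of protocols. HIS4, with 2400 nt of coding sequence the longest of the 7, was the only one of the 4 lower genes whose fold in the long-enriched protocol was not below that in the standard one, and its intervals overlapped.

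HIS6 (YIL020C, chromosome IX, 314035 to 314820, minus strand) encodes the isomerase that follows. It had 190 standard and 39 long-enriched reads in galactose, against 172 and 35 in glucose, a ratio of 0.797 (0.645 to 0.986) and of 0.781 (0.482 to 1.27). HIS6 was close to level between media, and under scaling by total reads its standard log2 ratio turned from -0.33 to 0.11.

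HIS7 (YBR248C, chromosome II, 714807 to 716465, minus strand) encodes imidazole glycerol phosphate synthase, which closes the imidazole ring and releases an intermediate of purine synthesis. It had 299 standard and 2478 long-enriched reads in galactose, against 618 and 3925 in glucose. The level was 2.86-fold lower (2.49 to 3.30) and 2.26-fold lower (2.15 to 2.38). The direction was shared by the protocols, and the intervals of the folds did not overlap. With molecules overlapping any part of the coding sequence counted, the ratios were 0.415 (0.369 to 0.465) and 0.447 (0.425 to 0.47). Those intervals overlapped, so the gap between protocols depends on how molecules are counted.

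HIS3 (YOR202W, chromosome XV, 721946 to 722608, plus strand) encodes imidazoleglycerol-phosphate dehydratase. It had 640 standard and 349 long-enriched reads in galactose, against 2413 and 881 in glucose. The level was 5.22-fold lower (4.79 to 5.71) and 3.60-fold lower (3.18 to 4.09). The fold differed between protocols by more than counting error; the long-enriched galactose column holds cultures 1 and 4 only, and the part of this in the difference was not tested.

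HIS5 (YIL116W, chromosome IX, 142928 to 144085, plus strand) encodes histidinol-phosphate aminotransferase. Only 1 standard read covered it in galactose, against 2 standard reads and 1 long-enriched read in glucose, so no ratio is given. Over all 6 columns 24 reads overlapped HIS5, and 11 of the 16 standard glucose reads lacked the 3' part of the coding sequence. The remaining gene, HIS2 (YFR025C, chromosome VI, 203743 to 204750, minus strand), encodes histidinol-phosphatase. It had 376 standard and 163 long-enriched reads in galactose, against 277 and 141 in glucose, a ratio of 0.980 (0.837 to 1.15) and of 0.810 (0.642 to 1.02). Both intervals held 1, and under scaling by total reads the standard log2 ratio of HIS2 turned from -0.03 to 0.41.

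With total reads as the scale, every standard log2 ratio is 0.44 higher and every long-enriched one 0.14 higher. The calls of HIS1, HIS3, HIS4 and HIS7 held under that scaling. When each distinct pair of ends was counted once in place of its reads, HIS3 and HIS4 were still called, with ratios nearer to 1. Of 3279 genes measured in that way, 29 were lower. The HIS3 ratio was then 0.396 (0.310 to 0.502) in the standard and 0.458 (0.342 to 0.606) in the long-enriched protocol, and the HIS4 ratio 0.327 (0.187 to 0.538) and 0.484 (0.387 to 0.602). HIS1 (standard log2 ratio -0.81) and HIS7 (long-enriched log2 ratio -0.81) fell short of 2-fold in 1 protocol.

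**Figure D1:**
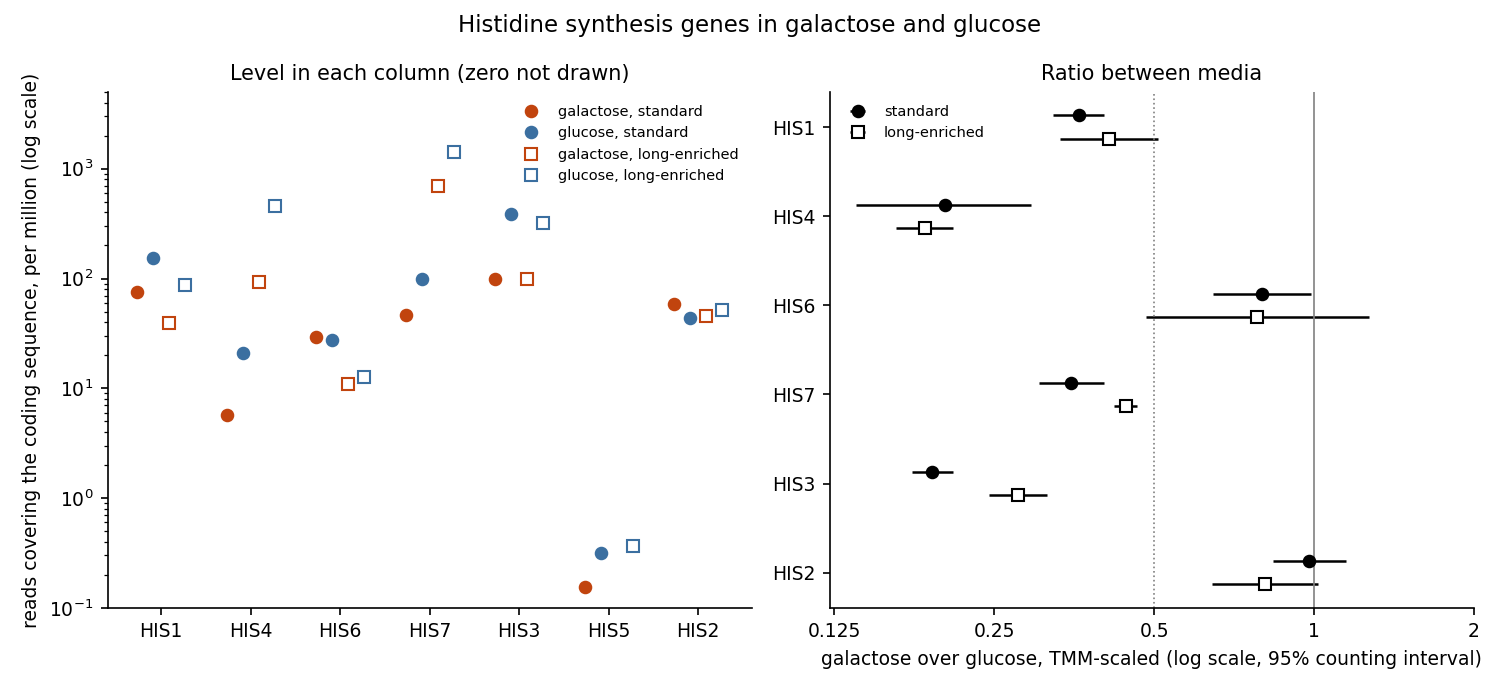
Left, reads covering each coding sequence as CPM (reads scaled to the total of the column), on a log axis, for galactose and glucose in the standard (filled circles) and long-enriched (open squares) protocols; the level of 1 gene cannot be set against that of another, since the protocols recover lengths unequally. Right, the TMM-scaled ratio of galactose over glucose with its 95% counting interval, on a log axis with lines at 1 and at 0.5: the points of HIS1, HIS4, HIS7 and HIS3 lie to the left of 0.5 (the long-enriched interval of HIS1 just reaches past it), those of HIS6 and HIS2 lie to its right, and HIS5 has too few reads for a ratio and no long-enriched galactose read.

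The start sites differed by medium in 3 of these genes. For each gene the most used 5' position over the 4 capped columns and the next most used one at least 8 nt away were taken, and reads within 2 nt of either were compared. The threshold was set after the data had been seen: the share of the upstream site among reads at both sites had to differ by at least 20 percentage points, the same way in each protocol, and neither interval of the difference could hold 0. HIS1, HIS7 and HIS3 passed with a greater upstream share in galactose, whereas HIS2, HIS4 and HIS6 did not. Of the 1964 genes with at least 20 such reads in each capped column, 0.509% passed with a greater upstream share (10 genes, HIS1, HIS3 and HIS7 among them) and 0.204% with a greater downstream share (4 genes). The 7 other genes with a greater upstream share were FUM1, GTT3, IRC7, LYS12, ORT1, SCM4 and STR2, of which LYS12 belongs to lysine synthesis; they are named after their values were seen.

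The sequences of the start regions, from the R64 genome of RefSeq and 5' to 3' on the strand of the gene, show where these molecules began. Capitals mark the positions at which at least 5% of all capped covering reads of the gene started, and each stretch ends at the stated distance before the start codon.
HIS3, 30 to 1 nt before the start codon, chrXV:721916-721945, plus strand: aatgagcAggcaagataaacGaaggcAaag
HIS7 upstream sites, 98 to 78 nt before the start codon, chrII:716543-716563, minus strand: acGactactcAatcaggtttt
HIS7 downstream sites, 73 to 49 nt before the start codon, chrII:716514-716538, minus strand: gaaaagaggcAgctAttgaagtagc
HIS1 upstream sites, 72 to 52 nt before the start codon, chrV:265837-265857, minus strand: tactcctattAacggtttGaa
HIS1 downstream site, 36 to 16 nt before the start codon, chrV:265801-265821, minus strand: aagaaaggatAggtttctaaa
HIS4, 70 to 50 nt before the start codon, chrIII:68383-68403, minus strand: taaaaatatcAtagcacaact
HIS2, 34 to 14 nt before the start codon, chrVI:204764-204784, minus strand: tgatAcGtacAattcagtaaa
HIS6, 31 to 11 nt before the start codon, chrIX:314831-314851, minus strand: taagaaggctGggggtatata

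The 6 measured genes had 16 positions with at least 5% of their capped reads. At all 16 the first base of the RNA was a purine (10 with A and 6 with G) preceded by a pyrimidine, C or T. Over 4585 genes with at least 20 capped covering reads the most used start had this pyrimidine and purine pair in 97.6%, so the histidine genes share it with nearly all genes.

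HIS3 began at 3 main positions, 23, 10 and 4 nt before the start codon. In galactose 48.9% of standard and 58.5% of long-enriched reads began at 23 nt, against 26.0% and 26.1% in glucose. The position at 10 nt held 20.6% and 18.1% of reads in galactose, against 42.1% and 41.2% in glucose, and the position at 4 nt held 9.06% and 8.31% in galactose, against 20.8% and 21.0% in glucose. The most used start of HIS3 was thus the upstream one in galactose and the downstream one in glucose.

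Among reads within 2 nt of either HIS3 site, the upstream one had 315 of 452 standard reads in galactose (69.7%, interval 65.2 to 73.9), against 632 of 1688 in glucose (37.4%, 35.1 to 39.8). In the long-enriched protocol it had 208 of 274 in galactose (75.9%, 70.4 to 80.9), against 233 of 615 in glucose (37.9%, 34.0 to 41.9). The share was greater in galactose by 32.2 percentage points (27.3 to 36.9) and by 38.0 (31.4 to 44.0). Both sites were lower in galactose, but unequally: reads starting exactly at 23 nt were 2.78-fold lower (2.42 to 3.19) and 1.61-fold lower (1.33 to 1.95), those at 10 nt 10.7-fold lower (8.89 to 12.9) and 8.23-fold lower (6.28 to 10.9), and those at 4 nt 12.0-fold lower (9.14 to 16.1) and 9.11-fold lower (6.13 to 14.0).

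HIS7 had 2 groups of starts, 1 around 88 and 96 nt and 1 at 63 and 59 nt before the start codon. The site at 88 nt had 119 of 148 standard reads at the pair of sites 88 and 59 in galactose (80.4%, 73.1 to 86.5), against 88 of 206 in glucose (42.7%, 35.9 to 49.8). It had 999 of 1251 long-enriched reads in galactose (79.9%, 77.5 to 82.0), against 664 of 1906 in glucose (34.8%, 32.7 to 37.0). The shares of the protocols lay within 10 points of each other in each medium, and the media differed by 37.7 points (27.8 to 46.3) and 45.0 points (41.8 to 48.0).

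At HIS7 the difference in level lay in the downstream group. All covering molecules were divided at 73.5 nt, the midpoint of the 2 sites. The upstream molecules had 206 standard and 1807 long-enriched reads in galactose, against 171 and 1304 in glucose, a ratio of 0.869 (0.706 to 1.07) and of 0.971 (0.903 to 1.04). The downstream molecules had 93 and 671 reads in galactose, against 447 and 2621 in glucose, 6.66-fold lower (5.32 to 8.42) and 5.58-fold lower (5.12 to 6.08). With total reads as the scale the upstream ratio was 1.18 (0.958 to 1.45) and 1.07 (0.995 to 1.15), so that its direction depends on the scaling.

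HIS1 started at many positions, the most used at 26 nt and at 62 nt before the start codon. The site at 62 nt had 87 of 138 standard reads in galactose (63.0%, 54.4 to 71.1), against 73 of 321 in glucose (22.7%, 18.3 to 27.7). In the long-enriched protocol it had 15 of 27 in galactose (55.6%, 35.3 to 74.5), against 16 of 81 in glucose (19.8%, 11.7 to 30.1). The difference was 40.3 points (30.7 to 49.0) and, from few reads, 35.8 points (15.0 to 54.1). Reads starting exactly at 26 nt were 7.85-fold lower in galactose (5.49 to 11.5) and 9.46-fold lower (4.47 to 23.0). Those at 62 nt had a ratio of 0.902 (0.648 to 1.26) and 0.607 (0.266 to 1.37). Reads at 54 nt, the second position marked in the upstream stretch, were 6.47-fold lower in galactose (3.67 to 12.2) in the standard protocol. In the long-enriched one their ratio was 1.05 (0.334 to 3.59), from 9 reads in galactose and 6 in glucose.

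**Figure D2:**
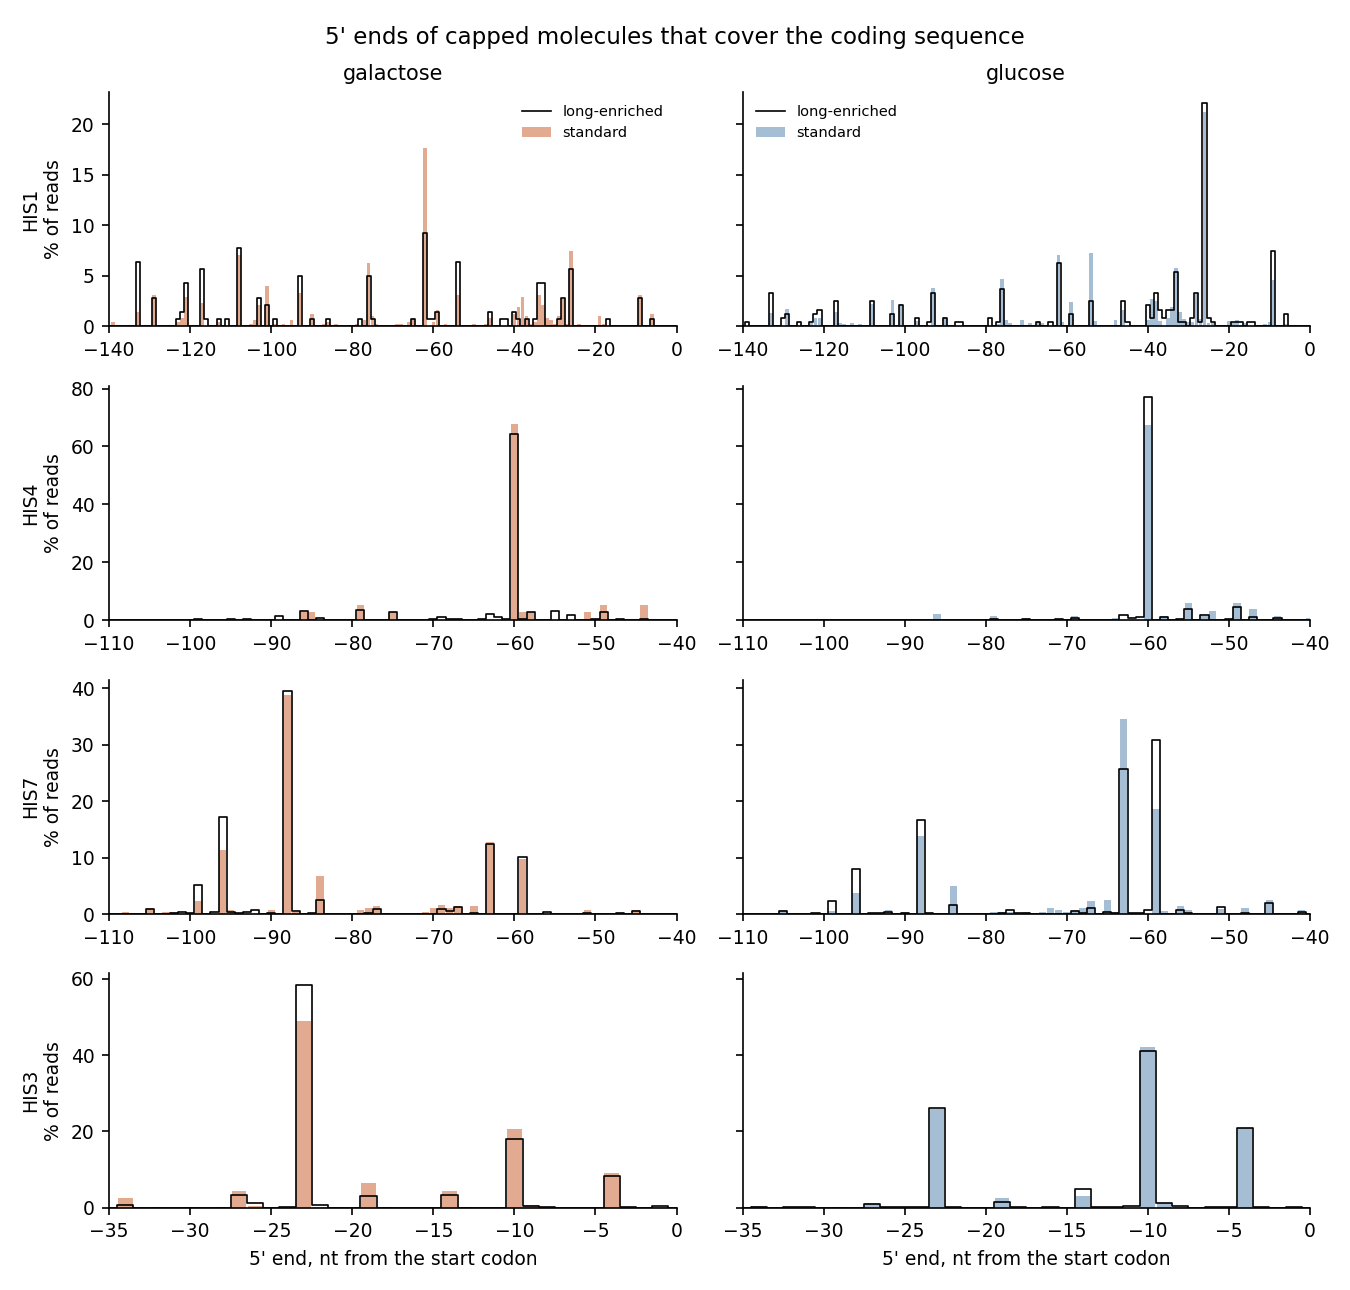
Share of the capped covering reads of HIS1, HIS4, HIS7 and HIS3 (rows) that begin at each position before the start codon, in galactose (left) and glucose (right), with the standard protocol as bars and the long-enriched one as a line. The tallest bar stands at 62 nt in galactose and 26 nt in glucose for HIS1, at 60 nt in both media for HIS4, at 88 nt in galactose and 63 nt in glucose for HIS7, and at 23 nt in galactose and 10 nt in glucose for HIS3; the line peaks at the same places, except at 59 nt for HIS7 in glucose.

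HIS4 kept 1 dominant start, 60 nt before the start codon. It held 67.6% of standard and 64.3% of long-enriched reads in galactose, against 67.4% and 77.1% in glucose. Reads from this single position were 4.93-fold lower in galactose (3.14 to 8.03) and 6.48-fold lower (5.58 to 7.56), so HIS4 differed in level at a start that both media used most. Its upstream share against the site at 49 nt was 90.0% of 30 standard reads in galactose and 87.5% of 104 in glucose, a difference of 2.50 points (-13.9 to 12.6). The share within 2 nt of the main start differed by 4.03 points (-13.5 to 18.3) in the standard protocol. In the long-enriched one it differed by -10.5 points (-16.1 to -5.27), being lower in galactose. Farther upstream, at positions picked by their values, 86 nt held 3.35% of long-enriched reads in galactose and 0.0805% in glucose. The position at 79 nt held 3.66% and 0.483%. The standard shares, from 37 galactose reads, were 2.7% and 2.27%, and then 5.41% and 1.52%.

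HIS2 and HIS6 each had 1 main start as well. The site 24 nt before the start codon of HIS2 held 52.9% of standard and 62.6% of long-enriched reads in galactose, against 65.7% and 68.8% in glucose. A minor start of HIS2 at 28 nt had 34 standard reads in galactose, against 5 in glucose (ratio 4.91, 1.91 to 16.1), and 8 against 2 in the long-enriched protocol, where the interval held 1. The site 21 nt before the start codon of HIS6 held 66.3% and 64.1% of reads in galactose, against 70.3% and 65.7% in glucose. The share of the HIS2 main site differed beyond counting error in the standard protocol only, by -12.8 points (-20.1 to -5.15). In the long-enriched protocol the HIS2 difference was -6.22 points (-16.6 to 4.5). For the HIS6 site both intervals of the difference held 0. As a level, the HIS2 site had a ratio of 0.789 (0.642 to 0.970) and 0.737 (0.552 to 0.983), and the HIS6 site 0.751 (0.581 to 0.973) and 0.761 (0.415 to 1.4).

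Dividing the molecules of every gene at the midpoint of its 2 sites gave the same picture. For HIS3, molecules that began upstream of the midpoint (16.5 nt) were 2.54-fold lower in galactose (2.25 to 2.87) and 1.57-fold lower (1.31 to 1.87), and those that began downstream were 10.2-fold lower (8.85 to 11.8) and 8.03-fold lower (6.55 to 9.93). For HIS1, divided at 44 nt, the upstream molecules were 1.97-fold lower (1.71 to 2.28) and 1.43-fold lower (1.08 to 1.89), and the downstream molecules 4.47-fold lower (3.72 to 5.40) and 5.15-fold lower (3.57 to 7.58). In HIS4 the upstream molecules were 4.68-fold lower (3.13 to 7.17) and the downstream ones 6.65-fold lower (2.49 to 22.3) in the standard protocol. Their intervals overlapped, unlike those of HIS1, HIS3 and HIS7. The HIS4 midpoint, 54.5 nt, lies downstream of its main start, so starts farther upstream were counted together with that start.

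**Figure D3:**
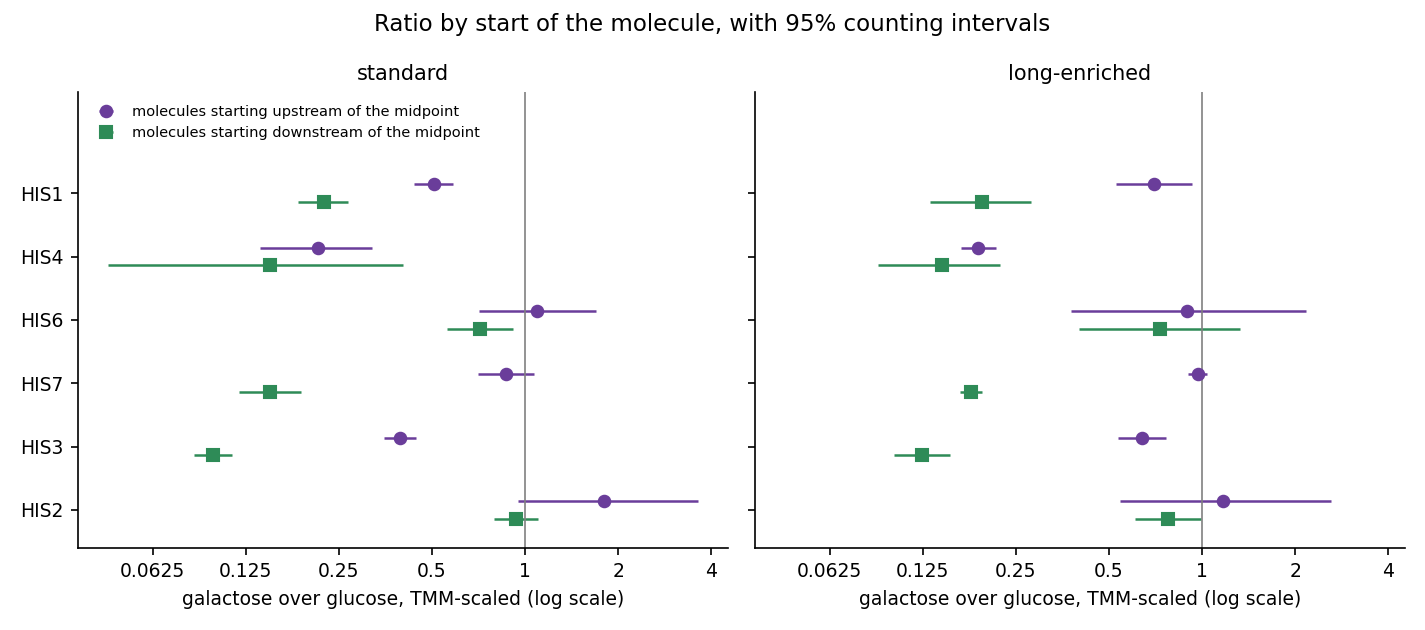
Ratio of galactose over glucose, on a log axis with 95% counting intervals, for covering molecules that begin upstream (circles) and downstream (squares) of the midpoint of the 2 most used start sites, in the standard (left) and long-enriched (right) protocol. The downstream molecules of HIS1, HIS7 and HIS3 lie to the left of their upstream molecules in both panels with no overlap of intervals, and the upstream molecules of HIS7 lie near 1.

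These shares rest on reads. With each distinct pair of ends counted once, only 3 of the 7 genes could be measured at the pair of sites and 0 met the threshold. Over all genes 0 of 1125 met it with a greater upstream share and 1 (0.0889%) with a greater downstream share, so this count says nothing of the 3. The division at the midpoint could be made for 6 genes. By distinct pairs, upstream molecules made up 62.2% of HIS7 pairs in galactose and 31.9% in glucose in the standard protocol, and 67.3% and 43.7% in the long-enriched one. For HIS3 they made up 53.3% of pairs in galactose and 41.0% in glucose, and then 51.2% and 32.8%; for HIS1, 65.8% and 51.2%, and then 70.3% and 49.7%. These 6 differences kept their direction with intervals above 0, and were smaller than by reads. HIS2 in the standard protocol, at 13.7 points (1.86 to 24.9), had a difference of like size. So did HIS4 in the long-enriched one, at 12.8 points (3.55 to 21.2). In the other protocol the difference was 4.56 points for HIS2 and 15.2 points for HIS4, and both intervals held 0. HIS6 differed the same way, by 9.16 points (standard) and 13.1 points (long-enriched), with intervals that held 0. A shift by distinct pairs in HIS2, HIS4 and HIS6 is thus not excluded. With intervals on 1 side of 0 in both protocols, the upstream share by distinct pairs was greater in galactose in HIS1, HIS3 and HIS7, against 1.59% of 2200 genes, and the downstream share in 0 of the 6, against 1.09%. By reads the same 3 genes passed, against 9.83% of 2666 genes for the upstream and 3.19% for the downstream share. The ratios of the downstream molecules were also nearer to 1 by distinct pairs: 0.313 (0.220 to 0.438) and 0.332 (0.222 to 0.487) for HIS3, and 0.255 (0.165 to 0.386) and 0.330 (0.254 to 0.427) for HIS7. Those of HIS1 were 0.398 (0.294 to 0.536) and 0.282 (0.174 to 0.443).

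Mean leader lengths moved less than the sites. The mean leader of HIS7 was 81.4 nt in galactose and 68.1 nt in glucose in the standard protocol, and 83.6 and 70.0 nt in the long-enriched one. That of HIS1 was 68.4 and 53.7 nt, and then 82.8 and 53.7 nt, and that of HIS3 was 18.5 and 12.9 nt, and then 18.7 and 12.8 nt. A shift of 20 nt in both protocols was reached by 0 of the 6 genes. A switch between sites that lie close together moves the mean by less than their distance. HIS3 could not reach such a shift with its main starts at 23, 10 and 4 nt, so the rule cannot test them. Over 2666 genes with at least 20 reads in every capped column, 1.13% had a mean leader at least that much longer in galactose. A mean leader that much shorter was found in 1.28%. With medians HIS1 and HIS7 passed as longer, against 0.788% of genes longer and 0.863% shorter; with 10 nt as the threshold the same 2 passed, against 3.04% and 2.63%.

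The promoters of the genes other than HIS1 were searched for TGACTC, the core that Gcn4 recognises, and for the TATA element with the letters TATAAA on both strands of the 250 bases before each start codon; the motifs do not overlap each other in the sequences shown. TGACTC was found in 5 of these 6 genes, all but HIS2, against 6.25% of 6001 promoters of that length. HIS4 and HIS7 had 2 matches each, which 0.400% of all promoters reached. TATAAA was found in HIS3, against 43.4% of all promoters. A match is a run of letters and not a shown binding site, and the absence of one says only that the letters are not in the window.

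The sequences below are printed because they hold these matches, in capitals, on the strand of the gene from the R64 genome of RefSeq; GAGTCA is TGACTC on the other strand. The first HIS4 stretch holds 1 further match, which begins beyond the 250 bases searched.
HIS3, 140 to 36 nt before the start codon, chrXV:721806-721910, plus strand: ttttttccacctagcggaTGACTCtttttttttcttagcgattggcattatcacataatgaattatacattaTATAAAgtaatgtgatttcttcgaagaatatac
HIS4, 260 to 231 nt before the start codon, chrIII:68564-68593, minus strand: cgaacTGACTCtaatagTGACTCcggtaaa
HIS4, 211 to 182 nt before the start codon, chrIII:68515-68544, minus strand: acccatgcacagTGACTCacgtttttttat
HIS7, 243 to 214 nt before the start codon, chrII:716679-716708, minus strand: gcaaaaaaaaattGAGTCAtatcgtagctt
HIS7, 156 to 127 nt before the start codon, chrII:716592-716621, minus strand: ttcatgagaaaaGAGTCAgacatcgaaaca
HIS6, 106 to 77 nt before the start codon, chrIX:314897-314926, minus strand: gtctagtgtgcaGAGTCAtacggaataatt

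In HIS3 the TGACTC match began 122 nt and the TATAAA match 68 nt before the start codon, the last being 58 nt before the start at 10 nt. HIS6, which holds a TGACTC match, was not called lower, and HIS2, which holds none, was not called either; HIS5, with 1 match, was not measured.

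The 3' ends were compared by the same rule, applied to the 2 most used 3' ends. By it, 0 of the 4 measured genes (HIS1, HIS2, HIS3 and HIS7) passed in either direction. Over 2073 genes, 0.145% passed with a greater share of the nearer end in galactose (3 genes) and 0.0965% with a greater share of the farther end (2 genes), so that 0 of 4 is close to the background. In HIS6, with too few long-enriched reads for a call, the nearer end (98 nt) had 48 of 80 standard reads at the pair in galactose, against 12 of 59 in glucose, and 10 of 24 long-enriched reads in galactose, against 8 of 13 in glucose. The HIS6 difference was 39.7 points (23.5 to 52.7) and -19.9 points (-46.8 to 12.6), opposite in the 2 protocols. For the mean 3' UTR, a shift of 20 nt in both protocols was reached by 0 of the 6 genes. Over 2666 genes, 0.150% had a longer and 1.16% a shorter 3' UTR in galactose by that rule. In HIS7, whose 2 most used ends lie at 71 and 80 nt, a move between them could not reach 20 nt.

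The most used end of HIS3 lay 86 nt after the stop codon. It held 54.7% of standard and 60.5% of long-enriched reads in galactose, against 53.5% and 57.4% in glucose. The farther ends of HIS3, at 136 and 166 nt, were used less in galactose: molecules ending more than 111 nt after the stop codon made up 15.9% and 17.8% of reads in galactose, against 29.5% and 29.2% in glucose. The difference was -13.6 points (-16.8 to -10.1) and -11.4 points (-16.2 to -6.17). This division is not the rule for calls: at the pair of ends 86 and 136 nt, the share of the nearer end was greater in galactose by 8.93 points (5.23 to 12.0) and 4.95 points (-0.0146 to 9.12). The division of 3' ends was not made over all genes, so it has no background. At the pair of ends, with 10 percentage points as the threshold, 2.17% of 2073 genes passed with a greater nearer share in galactose. For the farther share 0.434% passed, so the genome leaned the same way as HIS3. By distinct pairs the division differed by -20.5 points (-30.8 to -8.99) in the standard protocol and -9.74 points (-22.5 to 3.89) in the long-enriched one, where the interval held 0.

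HIS1 ended mostly at 132 nt and in 2 nearer groups at 73 and at 83 to 84 nt after the stop codon. The end at 132 nt held 30.4% of standard and 51.8% of long-enriched reads in galactose, against 31.2% and 40.8% in glucose. The media differed by -0.833 points (-5.79 to 4.29) in the standard protocol and by 10.9 points (0.602 to 21.0) in the long-enriched one. The end of HIS7 at 80 nt held 45.5% and 41.6% of reads in galactose, against 43.4% and 44.2% in glucose. In the standard protocol HIS7 had the shortest mean 3' UTR of the 6 measured genes, 79.1 nt in galactose and 79.3 nt in glucose.

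HIS4 ended over a wide stretch, with 135 nt after the stop codon as its most used position over the 4 capped columns. That end held 16.2% of 37 standard and 19.2% of long-enriched reads in galactose, against 22.7% and 17.5% in glucose. HIS2 ended mostly at 84 and 87 nt, and the share near 87 nt was 36.7% and 30.1% in galactose, against 26.0% and 26.2% in glucose. For HIS6 the protocols went opposite ways: the end at 137 nt held 16.8% of standard reads in galactose and 27.3% in glucose, but 35.9% of 39 long-enriched reads in galactose and 14.3% of 35 in glucose.

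**Figure D4:**
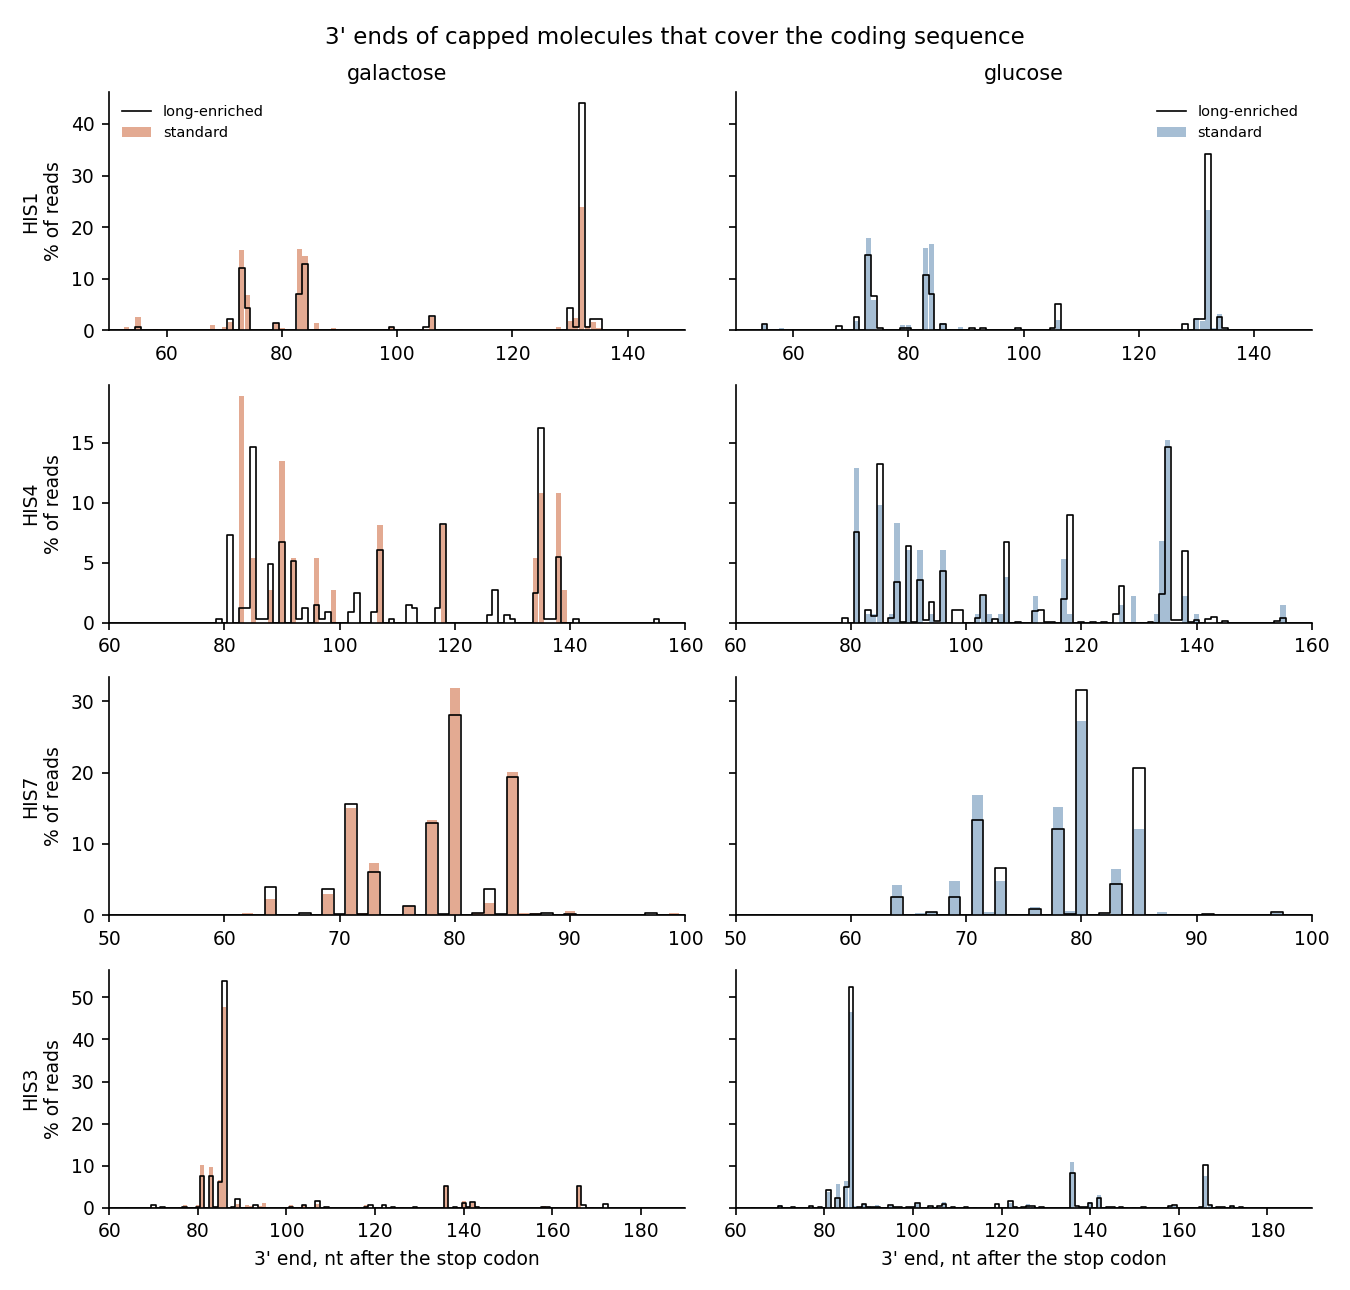
Share of the capped covering reads of HIS1, HIS4, HIS7 and HIS3 (rows) that end at each position after the stop codon, in galactose (left) and glucose (right), with the standard protocol as bars and the long-enriched one as a line. The main peaks of HIS1 (132 nt), HIS7 (80 nt) and HIS3 (86 nt) stand at the same positions in both media, whereas the tallest standard bar of HIS4 is at 83 nt in galactose (18.9% of 37 reads) and at 135 nt in glucose (15.2% of 132), and the HIS3 ends at 136 and 166 nt are lower in galactose.

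Because both ends of a molecule are read, 3' ends can be compared between molecules with different starts. In standard glucose reads, 12.5% (10.0 to 15.3) of the 632 HIS3 molecules from the upstream site and 11.9% (10.0 to 14.0) of the 1056 from the downstream site ended near 136 nt. In standard galactose reads the shares were 3.81% (1.98 to 6.56) of 315 and 5.84% (2.55 to 11.2) of 137. Within each medium the intervals of the 2 starts overlapped, and a difference in this 3' end by start site was not tested. In HIS7, 42.6% (39.6 to 45.8) of 999 long-enriched galactose molecules from the upstream site ended near 80 nt, and 39.7% (33.6 to 46.0) of 252 from the downstream site. In glucose the order was the opposite, 42.3% (38.5 to 46.2) of 664 from the upstream site and 48.0% (45.2 to 50.8) of 1242 from the downstream site. The intervals overlapped in both media, which does not exclude a difference. No interval of the difference was taken.

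The genes differed in how many distinct molecules they made. The expected number of distinct pairs of ends among 50 covering reads was 41.8 for HIS1 in the standard galactose column and 41.0 in the standard glucose column, above 98.9% and 98.6% of the genes with at least 50 reads. It was 25.2 and 24.4 for HIS3, and the median gene had 29.7 in galactose and 29.4 in glucose. HIS1 thus spread its reads over more pairs of ends than nearly all genes, and about equally in both media.

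Most capped molecules covered the whole gene, except those of HIS4 in the standard protocol and those of HIS5, of which 3 of 19 standard reads did. Over both media 89.5% (87.9 to 91.0) of 1609 standard reads overlapping HIS1 covered it, and 95.6% (94.9 to 96.3) of 3192 overlapping HIS3. Of 565 standard reads overlapping HIS4 only 29.9% (26.2 to 33.9) covered it and 383 lacked its 5' part, whereas 81.1% (79.3 to 82.9) of 1936 long-enriched reads covered it. For HIS7, with 1659 nt of coding sequence, the shares were 72.4% (69.9 to 74.9) of 1266 standard and 97.8% (97.4 to 98.2) of 6546 long-enriched reads. The standard HIS7 share differed by medium: 64.7% (60.2 to 69.1) of 462 reads in galactose and 76.9% (73.8 to 79.7) of 804 in glucose. In the long-enriched protocol it was 97.7% and 97.9%.

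The non-capped libraries showed where molecules without a cap began. They held 1255 reads in 55 pairs of ends over the 7 genes in galactose, and 2871 reads in 305 pairs in glucose, 22.8 and 9.41 reads per pair. All but 1 of these reads, in HIS5, ended past the stop codon. In galactose 0 of the 1255 reads began before a start codon. Counted as separate molecules, these reads would allow a share of up to 0.239%. They lie in only 55 pairs, so that limit is too low, and a difference between media cannot be judged from it. In glucose 91 of 2871 reads began before a start codon. Those 91 covered HIS3 (45 reads), HIS1 (29) and HIS6 (17). So few distinct pairs carry so many reads each that levels of non-capped molecules are not set against each other between media.

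The 5' ends of the non-capped HIS4 molecules lay far into the gene, at a median of 1825 nt after the start codon in galactose (320 reads in 15 pairs) and 1732 nt in glucose (1284 reads in 143 pairs). For HIS7 the median was 1110 nt in galactose (384 reads in 14 pairs) and 1030 nt in glucose (538 reads in 59 pairs). These medians lie at 76.0% and 72.2% of the HIS4 coding sequence and at 66.9% and 62.1% of that of HIS7, galactose first in each. The most read non-capped HIS7 pair of each medium ended 80 nt after the stop codon, the main end of the capped molecules.

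**Figure D5:**
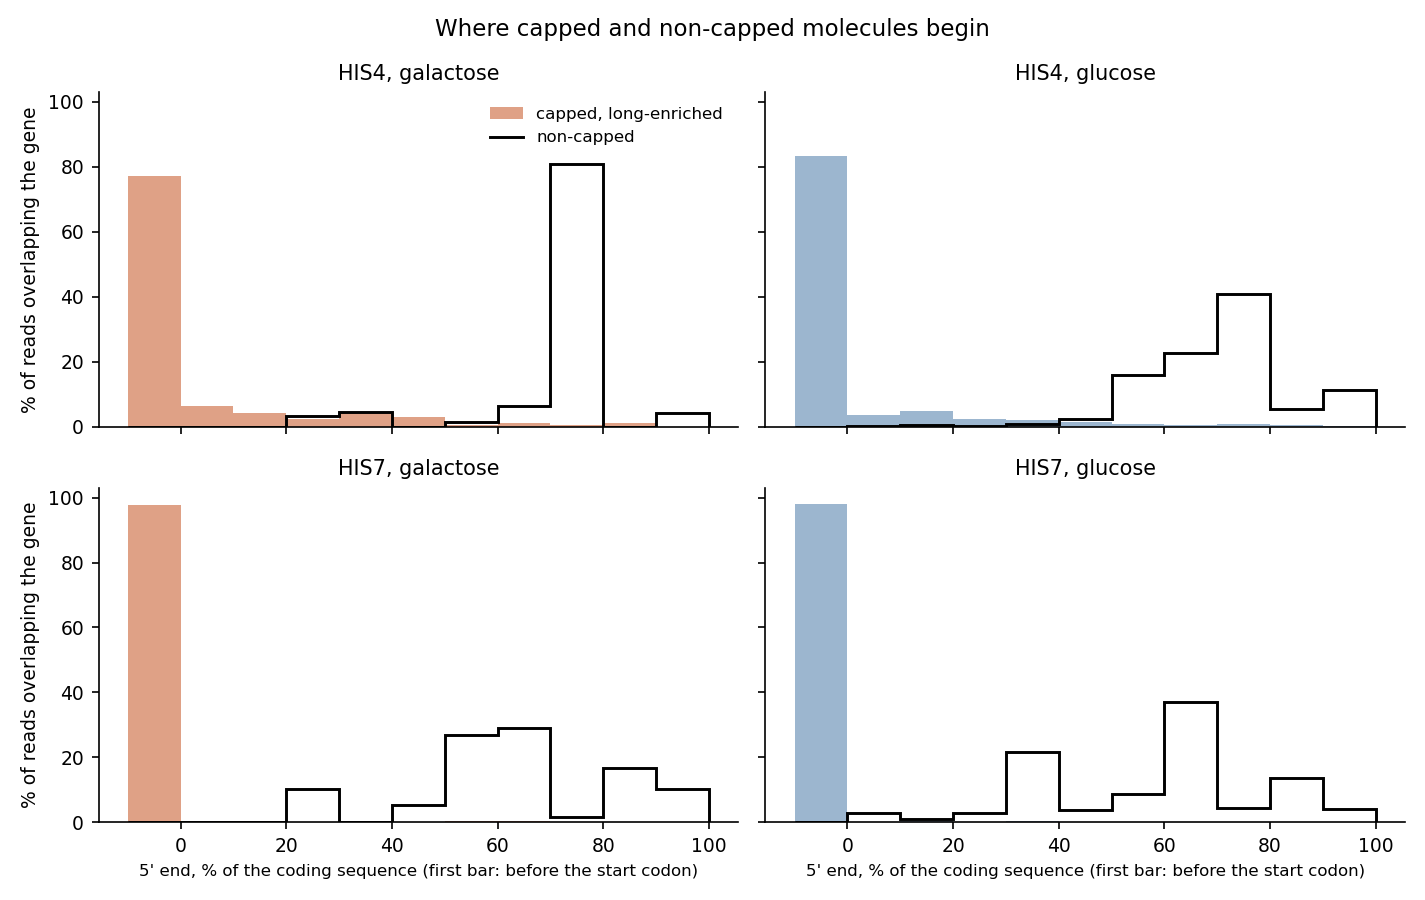
Share of the reads overlapping HIS4 (top) and HIS7 (bottom) whose 5' end lies before the start codon (first bar) or in successive equal parts of the coding sequence, in galactose (left) and glucose (right), for capped long-enriched reads (filled) and non-capped reads (line). The capped reads begin before the start codon in 77.0% (galactose) and 83.3% (glucose) for HIS4 and 97.8% and 98.1% for HIS7, in the same order of media; the non-capped reads begin inside.

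The surroundings of the pathway were counted with the same rule, from lists that were also drawn up with earlier results known. Of 6 regulators 3 were measured and 0 were called. GCN4, the activator, had 32074 standard and 49666 long-enriched reads in galactose, against 23467 and 36311 in glucose, a ratio of 0.986 (0.970 to 1.00) and 0.958 (0.945 to 0.971). Its log2 ratios were -0.02 and -0.06. With total reads as the scale every standard log2 ratio is 0.44 higher and every long-enriched one 0.14 higher, so the direction for GCN4 depends on the scaling. By that scale 1 of the 3 measured regulators had a standard log2 ratio below 0, against 2 under TMM. GCN4 is known to be controlled by translation, which read counts do not measure. ABF1, a general regulatory factor, had a ratio of 1.53 (1.04 to 2.28) and 1.36 (1.23 to 1.5). Of the 17 measured genes of the precursor phosphoribosyl pyrophosphate and of purine synthesis 0 were called, PRS1 among them at a ratio of 0.673 (0.605 to 0.748) and 0.661 (0.627 to 0.697), and ADE1 at 0.850 (0.801 to 0.901) and 0.860 (0.782 to 0.947). Of these 17 genes, 14 had a standard log2 ratio below 0 under TMM and 4 with total reads as the scale.

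Neither gene of histidine uptake and use was called. HTS1, the histidyl-tRNA synthetase, had a ratio of 0.649 (0.514 to 0.819) and 0.871 (0.775 to 0.980). HIP1, the high-affinity histidine permease, was higher in galactose in the standard protocol (66 reads in galactose and 26 in glucose, 1.83-fold, 1.15 to 3.01) and lower in the long-enriched one (1000 and 1067 reads, ratio 0.656, 0.602 to 0.716).

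For comparison, 7 of 8 measured arginine synthesis genes were called lower in galactose (median log2 ratio -2.99 in the standard protocol) and 4 of 6 measured lysine synthesis genes (median -1.87). ARG1, argininosuccinate synthetase, was 121-fold lower (87.8 to 172) and 78.8-fold lower (65.7 to 95.2), and LYS20, homocitrate synthase, 4.49-fold lower (4.23 to 4.78) and 4.16-fold lower (3.89 to 4.44). In number of calls the histidine genes were like the lysine genes, and no difference between the lists was tested.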

How the data were processed

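Molecules with a cap and a poly(A) tail were copied into cDNA, circularised and sequenced across the junction, per the labels' protocols. Reads were processed with CASAVA and Novoalign 2.07.10 on build R64, per the submitters' processing notes. Each deposited column holds read counts for every pair of ends, summed by the authors over libraries of 1 kind, per the file headers. The handling of PCR copies is not stated in these sources. All 6 count columns were used.

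Every position lay within its R64 chromosome. Reads were assigned to genes, scaled by TMM (edgeR 4.0.16, R 4.3.3; DESeq2 1.42.0 size factors as an alternative) and compared across all genes; log2 ratios used a pseudocount of 0.5 reads. Intervals are exact Poisson for ratios, Clopper-Pearson for shares and Newcombe for differences of shares; a count of 0 is read as up to 3. The call rule was tested on simulated data that held counting error alone. That test does not cover PCR copies or differences between cultures. The replicated edgeR and DESeq2 tests laid out in the design need separate libraries and could not be run.

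Genes were named by rule: all 7 members and, of every other list, up to 4 called genes and the 2 with the most reads, of which a few are printed. Members and lists were chosen with earlier results of these data known. The start-site and 3' end thresholds in percentage points, the counting of distinct pairs and the division at the midpoint were chosen after seeing the data. The alternatives tried were 2 further scalings, dropping the read minimum, molecules overlapping at least 50% or any part of the coding sequence, pairs with at least 2 reads, other windows, thresholds, medians and a 500 nt limit. Tables were handled with pandas 2.3.3 and numpy 2.4.6 in Python 3.11.15, intervals came from scipy 1.17.1, and figures from matplotlib 3.10.9. The HIS1 promoter is not reported here.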

Additional observations from a re-analysis of the deposited data

How the results depend on the processing

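HIS1, HIS3, HIS4 and HIS7 were called lower in galactose, and 0 genes higher, under TMM scaling and under total reads, DESeq2 size factors, no minimum, at least 50% overlap, any overlap and pairs with at least 2 reads. Counting distinct pairs, an alternative chosen after seeing the data, left 2 calls, HIS3 and HIS4, against 29 lower of 3279 genes. The medians were then -0.97 and -0.93 in the standard and long-enriched protocols. Scaling by total reads moved the standard median log2 ratio to -1.05; over all genes it raised the share of calls that were higher to 85.4%, against 71.6% under TMM. The number of genes with a shifted mean leader was 0, but 2 with medians and 2 with a threshold of 10 nt, HIS1 and HIS7 in both. The main start site's share differed between media in both protocols for HIS1, HIS3 and HIS7 with windows of 0, 2 or 5 nt. By distinct pairs it differed for 1 gene (HIS7). The main 3' end's share differed for 0 genes, but for 1 gene, HIS3, with a window of 5 nt. Neither of these shares was taken over all genes, so the counts have no background. The start-site switch of HIS1, HIS3 and HIS7 held with windows of 0 or 5 nt, pairs with at least 2 reads and 10 percentage points. At 10 points 2.44% of 1964 genes passed with a greater upstream share and 0.611% with a greater downstream share. By distinct pairs 0 genes of the pathway switched, though the division at the midpoint still gave 3. Among single values, 4 weakened: HIS1 (standard) and HIS7 (long-enriched) to a log2 ratio of -0.81 by distinct pairs, HIS1 upstream molecules (long-enriched) to -0.37 under total reads, and HIS3 upstream molecules (long-enriched) to -0.49 by distinct pairs. The cause of these changes was not tested. No paired analysis was possible because the deposited columns sum the libraries of each kind and carry no replicate number; leaving out a library was impossible for the same reason. Low counts of covering reads limit what can be said of HIS5, HIS6 in the long-enriched protocol and HIS4 in the standard one.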

Other observations

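The gene upstream of HIS4 on the same strand, BIK1 (YCL029C, chromosome III, 68599 to 69921), which encodes a microtubule-associated protein and was looked at after its values were seen, overlapped the HIS4 start region with its 3' ends. The coding sequences are 265 nt apart. Of capped molecules covering BIK1, 75.0% (53.3 to 90.2) of 24 standard reads in galactose and 90.0% (73.5 to 97.9) of 30 in glucose ended past the main HIS4 start, and 78.6% (72.8 to 83.7) of 234 and 78.1% (70.0 to 84.9) of 128 in the long-enriched protocol. The median BIK1 3' end lay 20 nt before the HIS4 start codon in all 4 capped columns.

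Few leaders of the histidine genes held an ATG upstream of the start codon. In HIS3 the nearest one lies 29 nt before the start codon, and 24 of 640 standard reads in galactose (3.75%, 2.42 to 5.53) began at or before it, against 24 of 2413 in glucose (0.995%, 0.638 to 1.48); in the long-enriched protocol the intervals overlapped (1.15%, 0.313 to 2.91, against 0.568%, 0.185 to 1.32). In HIS4 the nearest lies 88 nt before the start codon, with 12 of 328 long-enriched reads in galactose (3.66%, 1.90 to 6.30) and 5 of 1243 in glucose (0.402%, 0.131 to 0.936). Reads antisense to HIS6 numbered 18 in the standard galactose and 19 in the standard glucose column, beside 205 and 178 sense reads overlapping the gene. The long-enriched columns held 14 in galactose and 24 in glucose, beside 42 and 38. In the non-capped columns there were 31 in galactose and 6 in glucose, beside 20 and 74. HIS3 had 30 and 19 antisense reads in the standard columns and 16 and 12 in the long-enriched ones, galactose first. No antisense read fell on HIS4.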
